A study of Mus musculus with 5 samples.

Results

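The Pseudogene class of repeat reads and the peaks of γH2AX at the assembled copy of the 45S ribosomal DNA were compared across 4 Rb genotypes of mouse embryonic fibroblasts. Pseudogene is 1 of the 12 lines into which the authors sorted the reads of each library. The 45S locus was taken as a window of 7501 bp on chromosome 17 (mm9), and every peak overlapping it by at least 1 bp was kept, which gave 8 of the 11254 peaks in the 4 lists. The class was chosen by its share of the counts in these libraries and the window by the scores and ranks of its peaks, both of which were known to differ between genotypes. The values given here are therefore a description, and none was tested.

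γH2AX is the histone variant H2AX phosphorylated around DNA breaks and stalled replication forks. DNA bound to it was pulled down with an antibody and sequenced (ChIP-seq) from primary embryonic fibroblasts, still dividing at passage 4. The cells had both wild-type copies of Rb (Rb+/+), 1 ΔL allele beside a wild-type copy (RbΔL/+), 2 ΔL alleles (RbΔL/ΔL) or no functional Rb (Rb-/-). The ΔL allele alters the cleft through which the retinoblastoma protein binds partners with an LXCXE motif. Each genotype had 1 ChIP library, and 1 library of input DNA, made without antibody and with no genotype in its labels, gave the background. How many embryos each library came from is not given in the sources used here.

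Ribosomal DNA codes for the 45S precursor, which RNA polymerase I transcribes in the nucleolus and which is cut into the 18S, 5.8S and 28S ribosomal RNAs. Its copies lie in long tandem arrays on several mouse chromosomes, and nearly all of them are missing from the genome assembly, so that short reads from any copy can align to the few copies that are assembled. The arrays are known for heavy transcription, for barriers that stop replication forks and for repression of RNA polymerase I by the retinoblastoma protein. Repeat catalogues also hold copies of RNA genes scattered through the genome. Which sequences the authors placed in the Pseudogene line is not given in the sources used here. Whether its reads are the reads under the 45S peaks was not tested. No annotation or genome of mm9 was used, so the name 45S comes from the definition of the window, no transcript limits are drawn inside it and no sequence is printed.

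The libraries held between 13731924 counts (RbΔL/+) and 17896985 counts (Rb+/+), of which 88.7% to 89.8% fell on the unique genome. Since each genotype is 1 library, its values have no replicate check, and the 95% intervals cover counting error only. The number on each peak list is 1 higher than the sample number in the labels of the sample it was deposited with, and all peak results rest on the sample and not on that number.

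All 4 ChIP libraries held more Pseudogene reads, as a share, than the input did, and Rb+/+ held the most. The input held 1961 Pseudogene counts, a share of 0.0114% of all counts (exact binomial 95% interval 0.0109 to 0.0119). In Rb+/+ there were 12486 counts, or 0.0698% (0.0685 to 0.0710). In RbΔL/+ there were 8259 counts, or 0.0601% (0.0589 to 0.0615). These 2 libraries, which carry at least 1 wild-type Rb allele, had the highest shares. Rb-/- followed with 6936 counts, or 0.0415% (0.0406 to 0.0425). RbΔL/ΔL was the lowest of the 4 with 2726 counts, or 0.0170% (0.0163 to 0.0176), which still lay above the interval of the input.

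**Figure D1:**
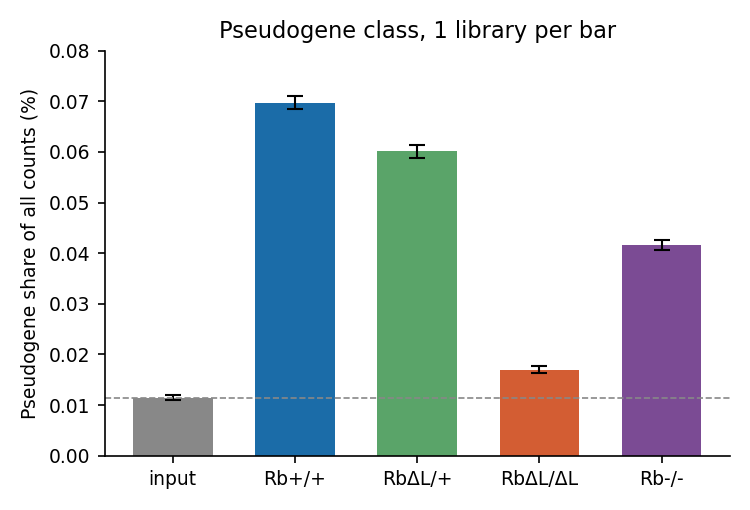
Share of all counts in the Pseudogene class (vertical axis, percent) in the input and the 4 ChIP libraries, 1 library per bar, with exact binomial 95% intervals as error bars and the level of the input as a dashed line. Rb+/+ is highest at 0.0698% and RbΔL/ΔL, at 0.0170%, is nearest to the input at 0.0114%.

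The class is small, so its counts were also set against the repeat lines alone, without the unique genome. There, 1 in 987 repeat counts was Pseudogene in the input. The frequency was 1 in 146 for Rb+/+, 1 in 182 for RbΔL/+, 1 in 265 for Rb-/- and 1 in 615 for RbΔL/ΔL. By size Pseudogene was the eleventh of the 12 lines in the input and the tenth in RbΔL/ΔL, but the eighth in the other 3 ChIP libraries. At the share of the input, 2043 Pseudogene counts would have been found in Rb+/+, and the excess over that number was 10443 counts, or 0.0584% of the library. The excess was 6692 counts (0.0487%) in RbΔL/+, 5029 (0.0301%) in Rb-/- and 893 (0.00556%) in RbΔL/ΔL.

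Relative to the input, the Pseudogene share was 6.11 times as large in Rb+/+, 5.27 times in RbΔL/+, 3.64 times in Rb-/- and 1.49 times in RbΔL/ΔL. A ratio of at least 1.5 was reached by 8.33% of the 12 lines in Rb+/+, in RbΔL/+ and in Rb-/-, and by 0% in RbΔL/ΔL. The single line past that limit in those 3 libraries was Pseudogene, whose own passing follows from the choice of the class. The other 11 lines ran from 0.686 (satellites) to 1.09 (LINEs) in Rb+/+ and from 0.792 (satellites) to 1.25 (simple repeats) in RbΔL/+. In RbΔL/ΔL they ran from 0.805 (satellites) to 1.01 (unique genome), and in Rb-/- from 0.407 (LTR retrotransposons) to 1.397 (the line the authors named other). Pseudogene thus stood at 5.59 times the next highest line in Rb+/+, 4.21 times in RbΔL/+, 2.604 times in Rb-/- and 1.47 times in RbΔL/ΔL.

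**Figure D2:**
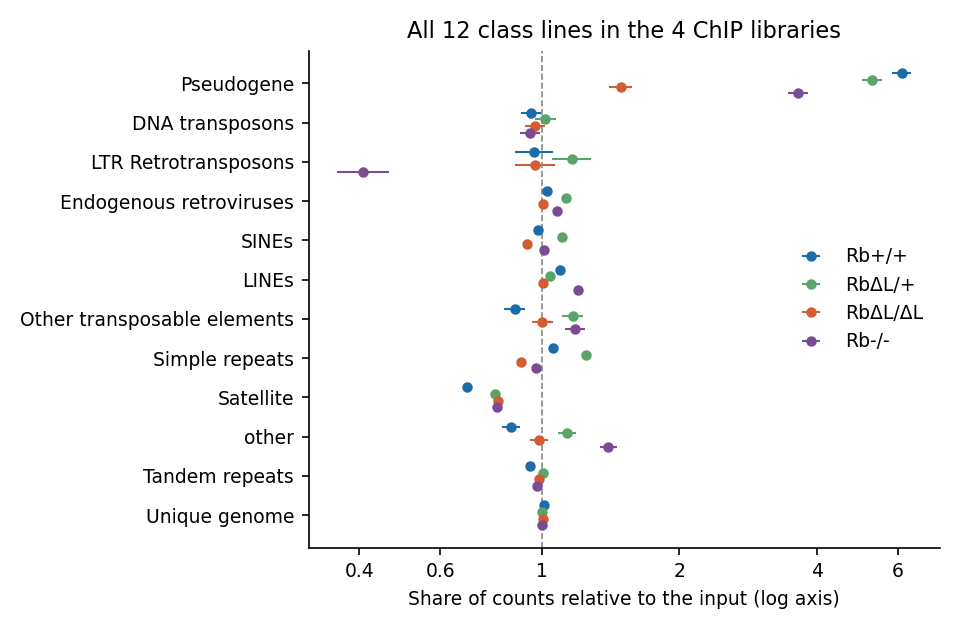
Share of counts relative to the input (horizontal log axis) for the 12 lines in the 4 ChIP libraries, 1 point per library with its 95% counting interval. Pseudogene runs from 1.49 in RbΔL/ΔL to 6.11 in Rb+/+, while the other lines lie between 0.407 and 1.397.

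Set against each other, the 4 ChIP libraries spread by a factor of 4.11 between Rb+/+ and RbΔL/ΔL (95% counting interval 3.94 to 4.28). This was the widest spread of the 12 lines, ahead of LTR retrotransposons (2.86), the line named other (1.63) and simple repeats (1.39). The smallest step was that from Rb+/+ to RbΔL/+, where the first was 1.16 times the second (1.13 to 1.19). Between the single-allele and the double-allele ΔL libraries the ratio was larger, with RbΔL/+ at 3.54 times RbΔL/ΔL (3.39 to 3.70). The library without functional Rb lay between them, at 0.690 times RbΔL/+ (0.669 to 0.713) and at 2.45 times RbΔL/ΔL (2.34 to 2.56). Rb-/- stood at 0.595 times Rb+/+ (0.578 to 0.613). The order of the Pseudogene shares was therefore Rb+/+, RbΔL/+, Rb-/- and RbΔL/ΔL, and 0 of the other 11 lines had the same order. Rb+/+ was the highest ChIP library for 1 other line, the unique genome. Total counts followed a different order, with RbΔL/+ the shallowest library and second in its Pseudogene share.

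At the 45S locus every ChIP library had a peak, and the stretch covered was nearly the same in all of them. The peaks merged into 1 region of 6116 bp at chr17:39979826-39985941 (mm9). It was 1 of 12 regions with a peak in all 4 lists, a group that made up 0.108% of the 11151 merged regions. The window reached 826 bp further on its left and 559 bp further on its right. The single Rb+/+ peak spanned all 6116 bp. Cover was 5882 bp for RbΔL/+, 5256 bp for RbΔL/ΔL and 5203 bp for Rb-/-, so that the least covered library still held 85.1% of the region. All 4 lists together covered the same 5117 bp, or 83.7% of it.

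What differed was how many peaks made up the cover and how each scored. The score is the authors' own, has no definition in the files and is taken to be larger for a smaller p-value. Such a score moves with a library's depth and background. It is therefore used to rank peaks within a list and is not treated as one scale between lists. Rb+/+ had 1 unbroken peak over the whole region, with a score of 2233.31, rank 2 of 3857. RbΔL/+ had 2 peaks. The first, at chr17:39979882-39983761, scored 2107.06 (rank 3 of 3789), and the second, at chr17:39983906-39985907, scored 504.4 (rank 8). In both libraries the locus thus held one of the 3 highest peaks of the list.

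RbΔL/ΔL also had 2 peaks in nearly the same places, but the second was no longer near the top of the list. The first, at chr17:39979934-39983679, scored 151.91 (rank 11 of 1976), and the second, at chr17:39984266-39985775, scored 73.7 (rank 198). Rb-/- had 3 peaks, and none of them came near the top of its list. They scored 112.8 at chr17:39979969-39982213 (rank 607 of 1632), 147.31 at chr17:39982233-39983651 (rank 187) and 161.93 at chr17:39984323-39985861 (rank 175). The best of the 3 stood 10.7% of the way down its list. Because the lists differ in length, these ranks do not by themselves show a change between genotypes.

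**Figure D3:**
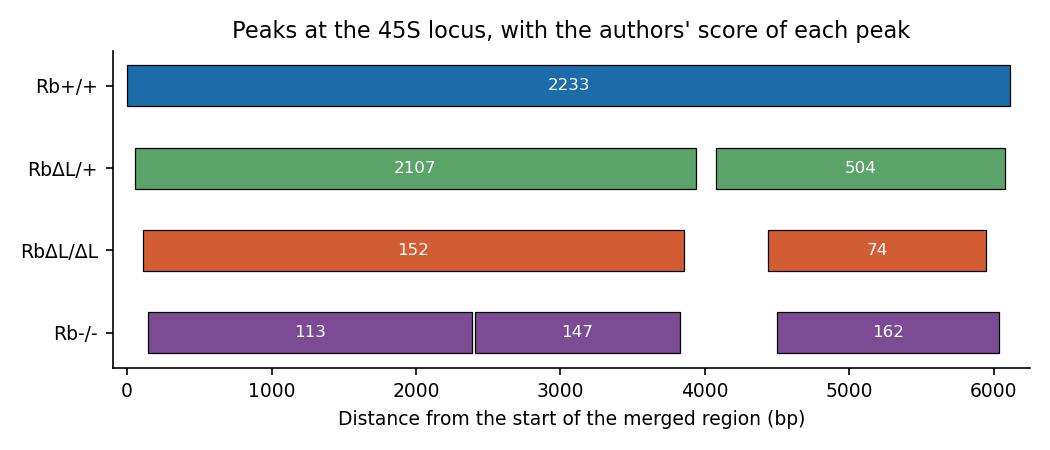
Peaks of the 4 lists at the 45S locus (horizontal axis, distance in bp from the start of the merged region), 1 row per genotype, with the authors' score printed in each peak and rounded to a whole number. All lists cover most of the 6116 bp, Rb+/+ with 1 peak and the 3 mutants with a gap near the same place.

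The gaps between the peaks were nested inside each other. RbΔL/+ left out 144 bp between its 2 peaks, at chr17:39983762-39983905, RbΔL/ΔL left out 586 bp and Rb-/- left out 671 bp, and each wider gap contained the narrower ones. That 144 bp stretch began 3936 bp from the start of the region and was covered in Rb+/+ alone. Rb-/- had a further gap of 19 bp between its first and second peak. At the outer edges, the first peak began 56 bp inside the start of the Rb+/+ peak in RbΔL/+, 108 bp inside it in RbΔL/ΔL and 143 bp inside it in Rb-/-. The last peak ended 34, 166 and 80 bp before the end of the Rb+/+ peak in the same order.

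Within a list the 2 sides of the gap can be compared directly. In RbΔL/+ and RbΔL/ΔL the stretch before the gap scored higher than the one after it, with 2107.06 against 504.4 and 151.91 against 73.7. In Rb-/- the peak after the gap had the highest of the 3 scores, 161.93 against 147.31 and 112.8. The stretch before the gap was split into 2 peaks in that library alone, and a peak cut in 2 need not score as the whole would.

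By width the locus stood at or near the top of every list, in contrast to its scores. The Rb+/+ peak of 6116 bp was the widest of its list, where the next was 1777 bp and the median 390 bp. The 3746 bp peak of RbΔL/ΔL and the 2245 bp peak of Rb-/- were also the widest of theirs, ahead of 2532 bp and 1880 bp. In RbΔL/+ the 3880 bp peak was second to one of 3897 bp elsewhere. Of all bases under peaks, the locus held 0.399% for Rb+/+, 0.388% for RbΔL/+, 0.821% for RbΔL/ΔL and 0.871% for Rb-/-. These shares move with the length of each list, which covered 1532113, 1515715, 640401 and 597354 bp in the same order.

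The locus was isolated in each list. Of the peaks on chromosome 17 (110 for Rb+/+, 149 for RbΔL/+, 65 for RbΔL/ΔL and 61 for Rb-/-), the nearest on the left ended 514 kb (Rb-/-) to 2862 kb (RbΔL/+) away. The nearest on the right began 451 kb (Rb+/+) to 1645 kb (RbΔL/+) away. These neighbours scored from 57.57 to 167.75. The locus held the highest score of the chromosome in Rb+/+, RbΔL/+ and RbΔL/ΔL, but only the fourth highest in Rb-/-, where the neighbour on the right, at chr17:40648134-40648357, scored 167.06 and so lay above all 3 peaks of the locus.

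The other 11 regions with a peak in all 4 lists give each list a comparison set of the same size. Several of them lie close together, within chr2:98502258-98507611 and within chr9:2999906-3026219. They are therefore not 11 separate places in the genome, and the counts below are counts of regions only. Whether they hold satellites or other repeats was not examined, and whether they themselves differ between genotypes was not tested. In Rb+/+ the 45S locus scored above 10 of the 11 and in RbΔL/+ above 9, behind regions of chromosome 2. In RbΔL/ΔL it scored above 6 of the 11. In Rb-/- the best of its 3 peaks scored below all 11, each of which was a single peak there. Their scores ran from 240.68 to 3100 with a median of 1193.12. The value 3100 was also the highest score of the Rb+/+ and RbΔL/+ lists. The place of the 45S locus among the 12 was thus 2, 3, 6 and 12. The ranks of the other 11 regions in the whole Rb-/- list lay within the first 18 peaks, and those in Rb+/+ within the first 20, so this library kept the other shared regions at its top and not the 45S locus. In RbΔL/+ they lay within the first 19. In RbΔL/ΔL only 6 of the 11 lay within the first 20 and the lowest was at rank 1827, so that place 6 there is set against weaker regions than in the other lists. Between Rb+/+ and Rb-/- the other regions moved by at most 3 places, while the 45S locus moved by 10. The window was chosen with these scores and ranks known. The other regions all lay within the first 20 peaks of both lists, which leaves them little room to move. This contrast is therefore a description and no evidence of a change particular to the locus. Between Rb+/+ and RbΔL/ΔL the 45S locus moved by 4 places, which was also the largest move of another region. From Rb+/+ to RbΔL/+ it moved by 1, less than the largest move of 3. With the scores of all peaks in a region added up, which takes account of the 3 peaks in Rb-/-, the places of the locus were 2, 2, 6 and 9.

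**Figure D4:**
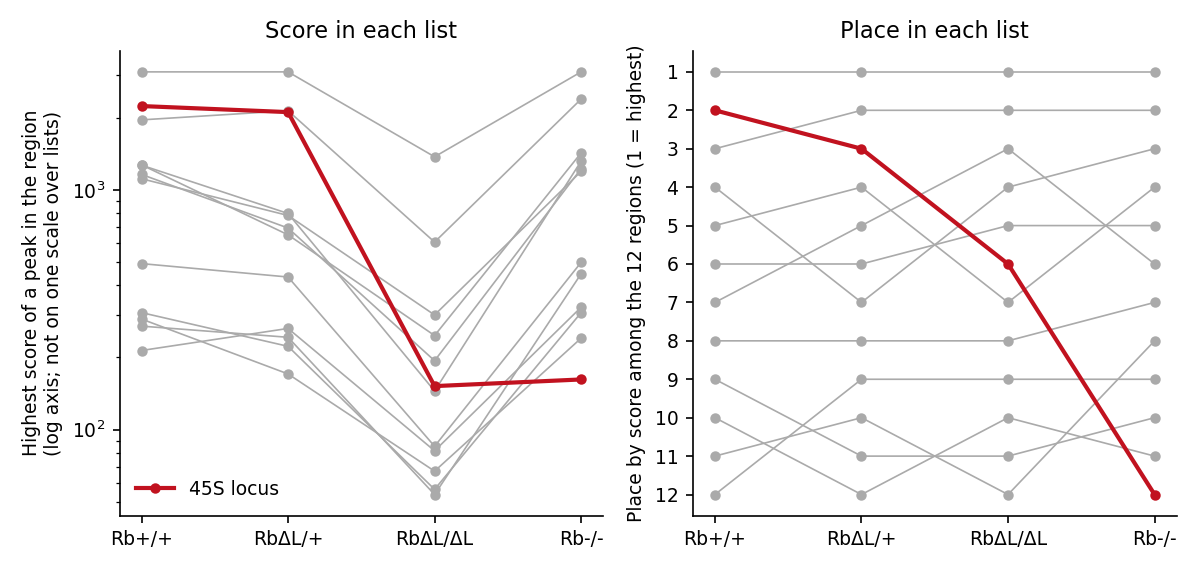
Highest score (left, log axis) and place by score (right, 1 is highest) of the 12 regions with a peak in all 4 lists, with the 45S locus in red and the other 11 in grey, and lines joining the values of 1 region. The 45S locus is at place 2 in Rb+/+ and at place 12 in Rb-/-, and scores on the left are not on one scale between lists.

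The 2 readouts were then set side by side by the order of the genotypes. Rb+/+ and RbΔL/+ stood above RbΔL/ΔL and Rb-/- in the Pseudogene share and, at the locus, in the highest and the summed score, the best rank in the list, the bases covered and the place among the 12 shared regions. They did not in the number of peaks, the rank by width, the rank on chromosome 17 or the share of the list's bases, whose values are given above. By the highest score the order at the locus was that of the Pseudogene shares, so 4 of 4 genotypes held the same place. The last 2 places rested on 161.93 for Rb-/- and 151.91 for RbΔL/ΔL, from peaks on different sides of the gap. The other 11 shared regions had their lowest median score in RbΔL/ΔL too, 144.92. It was 1111.8 in Rb+/+, 648.92 in RbΔL/+ and 1193.12 in Rb-/-. A low score in RbΔL/ΔL was thus not particular to the locus. Scores of different lists are not on one scale. The order at the locus turned when each highest score was divided by the median score of its list. The quotient was 33.2 for RbΔL/+, 31.0 for Rb+/+, 2.55 for RbΔL/ΔL and 1.73 for Rb-/-, and 0 of 4 genotypes then held the place of their Pseudogene share. By best rank and by place among the 12 shared regions, Rb-/- was last, behind RbΔL/ΔL, and 2 of 4 genotypes held the same place. The bases covered gave the same result on a difference of 5256 bp against 5203 bp, which turned with the handling of peaks. With peaks of a score of at least 100 the cover was 3746 bp for RbΔL/ΔL and 5203 bp for Rb-/-, and with peaks within 1000 bp joined it was 5842 bp and 5893 bp, so that 4 of 4 genotypes held the same place in both cases. By summed score RbΔL/+ (2611.46) came before Rb+/+ (2233.31), followed by Rb-/- (422.04) and RbΔL/ΔL (225.61), again with 2 of 4 in the same place. By the number of peaks, counted from the fewest, 1 of 4 genotypes held the same place.

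**Figure D5:**
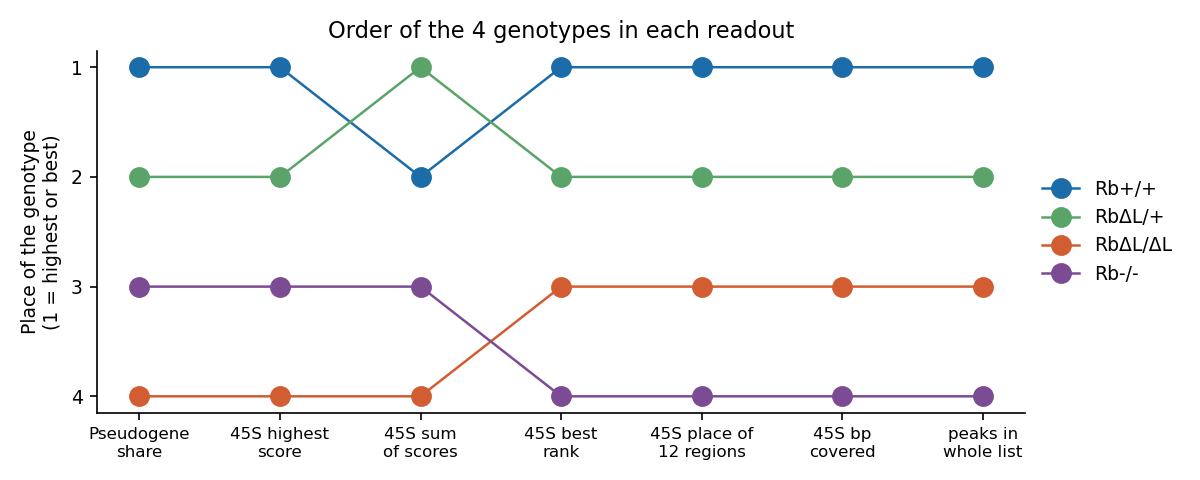
Place of each genotype (vertical axis, 1 is highest or best) in the Pseudogene share, in 5 measures of the 45S locus and in the number of peaks of the whole list, with 1 line per genotype. Rb+/+ and RbΔL/+ take the first 2 places in each of these, and RbΔL/ΔL and Rb-/- exchange the last 2, as drawn for peaks as deposited and scores not divided by the list median.

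The order of RbΔL/ΔL and Rb-/- at the locus thus depended on the measure, while their Pseudogene shares differed by a factor of 2.45. The number of peaks in the whole list had the order Rb+/+ (3857), RbΔL/+ (3789), RbΔL/ΔL (1976) and Rb-/- (1632). At the locus, best rank, bases covered and place among the shared regions had that same order. The part of list length in these measures was not tested. With 4 libraries no correlation between the 2 readouts is given.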

How the data were processed

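Each of the 5 libraries came with whole-number read counts for 12 class lines, which the authors deposited without normalization. Each ChIP library came with a peak list in which the deposited score of each peak is the authors' own. Per the submitters' processing notes, the tools were Bowtie 1.0 and MACS 1.4.2 and the build was mm9, with no step attached to either tool. The counting of reads that match many repeat copies, the handling of duplicates and the control and threshold for peaks were not given in the sources used here. No header defines the score, which is taken to be MACS's log-transformed p-value.

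Counts were divided by the library total, with exact (Clopper-Pearson) 95% binomial intervals for shares and 95% counting intervals on the log scale for ratios. All ratios to the input share 1 input library. Reads lack molecular identifiers and may repeat a molecule, so intervals cover counting error only. Peaks were ranked within their list by score, ties taking the better rank, and peaks of different lists sharing at least 1 bp were joined into regions. Coordinates are written from 1. No test between genotypes was run. The named items are all 12 lines, every peak in the window, its nearest neighbours on either side and every region with a peak in all 4 lists. The members and lists were chosen with earlier results of these data known. The satellite family counts were not used. Ratios and window cover were checked on simulated data. The work was done in Python 3.11.15 (scipy 1.17.1, pandas 2.3.3, numpy 2.4.6, matplotlib 3.10.9).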

Additional observations from a re-analysis of the deposited data

How the results depend on the processing

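The Pseudogene ratios kept their direction under 4 other scalings. Of the ratios to the input 13 of 16, and of those to Rb+/+ 8 of 12, stayed inside their main counting interval. Set against the repeat lines alone, the ratio to the input was 6.77 in Rb+/+ and 1.604 in RbΔL/ΔL, and the ratio to Rb+/+ was 0.799 in RbΔL/+ and 0.5502 in Rb-/-. Scaled to a median class ratio of 1, RbΔL/+ was at 4.71 of the input and 0.773 of Rb+/+, and Rb-/- at 0.576 of Rb+/+. This scaling shifted RbΔL/+ by 0.16 (log2) against the input and by 0.158 against Rb+/+. The order of the 4 shares was the same against the repeat lines and with the median ratio to the input set to 1.

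The bases covered at the 45S locus stayed within 1.5 times under a score of at least 100, joining of peaks within 1000 bp and a window widened by 5000 bp. The number of peaks became 1 in RbΔL/+, RbΔL/ΔL and Rb-/- when peaks within 1000 bp were joined, and 1 in RbΔL/ΔL at a score of at least 100. The best rank depended on what was ranked. Among peaks of chromosome 17 it was 1 in Rb+/+, RbΔL/+ and RbΔL/ΔL and 4 in Rb-/-, and by width it was 1 in Rb+/+, RbΔL/ΔL and Rb-/- and 2 in RbΔL/+. Among the 12 shared regions, a comparison chosen after seeing the data, the place was 6 in RbΔL/ΔL and 12 in Rb-/-, or 6 and 9 by summed score. The number of genotypes at the same place in both readouts was 4 by the highest score. It was 2 by summed score, best rank, bases covered or place among the shared regions, and 1 by the number of peaks. By bases covered it became 4 with peaks of a score of at least 100 (3746 bp in RbΔL/ΔL, 5203 bp in Rb-/-) and 4 with peaks within 1000 bp joined (5842 and 5893 bp). With the highest score divided by the list's median score it was 0. These last 3 were chosen after seeing the data.

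No paired analysis was possible because each genotype had 1 library, and for the same reason none was left out. The libraries gave 1961 to 12486 Pseudogene counts, and the spread between replicate libraries is unknown.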
